A study of Mus musculus with 6 samples.

Results

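The comparison described here set BDC2.5 CD4 T cells of NOD mice that had received anti-DCIR2-BDC against the same cells of mice that had received PBS, over 19938 genes on 4 arrays (2 per group) of the 6 in the series. The NOD strain spontaneously loses its insulin-producing beta cells to autoimmunity, and T cells that carry the transgenic BDC2.5 receptor respond to a beta-cell antigen. Such cells had been transferred into female NOD mice, which were injected intravenously at 7 weeks of age with 100 ng of an antibody to DCIR2 that carries the BDC antigen, or with PBS. The donor cells were taken from the spleen 14 h later, enriched without labelling them, and sorted by flow cytometry as Thy1.1+CD4+ cells. A further pair of arrays came from mice given 100 ng of anti-DEC205-BDC, the same antigen on an antibody to DEC205. Levels on these arrays are described only where the antibodies are compared. The pair also entered the fit against PBS, where it adds to the estimate of the spread, and the choice of probe sets. Each group holds biological duplicates per the labels, but the number of mice behind an array is not stated. The samples used here hold no group given an antibody without the antigen, so the antigen and the antibody cannot be told apart as the source of a difference from PBS. All groups share the NOD host, the transferred transgenic T cells and the sort. Genes were taken as all probe sets with 1 gene symbol, with the brightest kept where a gene had several.

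DCIR2 (gene Clec4a4) and DEC205 (gene Ly75) are endocytic receptors of different dendritic cell types, and an antibody to either one loads its antigen into those cells for presentation to T cells. A T cell whose receptor meets its antigen switches on transcription factors of the NFAT, NF-kB, AP-1 and IRF families, secretes cytokines and leaves quiescence. Before it divides, it enlarges: it builds ribosomes, imports amino acids, makes nucleotides and one-carbon units and expands its mitochondria. Naive T cells, by contrast, hold a programme of quiescence, survival on interleukin 7 and recirculation that is known to recede on activation.

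Values are log2 RMA levels, and a change is the anti-DCIR2-BDC mean minus the PBS mean, so that 1 unit is a doubling. A gene is said to rise or fall where limma's moderated test over all genes gave a Benjamini-Hochberg adjusted p under 0.05. On this rule 3568 of 19938 genes passed (17.9%), of which 2008 rose (10.1%) and 1560 fell (7.82%). Rises reached further than falls: 1158 genes rose and 681 fell at least 2-fold, 173 rose and 56 fell at least 4-fold, and 14 rose and 1 fell at least 8-fold. For all 3568 genes that passed, the arrays of the groups did not overlap, as was the case for 55.3% of all genes. Of the genes that passed, 1638 (1034 higher, 604 lower) passed in each of 17 other ways of handling the data. Every single gene said below to rise or fall was among these 1638, unless its exceptions are given. Without anti-DCIR2-BDC array 1 the count of genes passing was 2285, and without array 2 it was 2090. The share that passed depended on the level: in the dimmest quartile of genes 0.74% rose and 1.44% fell, and in the brightest quartile 26.3% rose and 16.3% fell. Lists of genes are described by their counts, with the number that passed in every alternative beside them, and by their median change, against a median of -0.05 over all genes. Lists and members were chosen with earlier results of these data known. The share of a list that passed, and its rank among lists, thus describe the list and are no independent test of it. Where a list had 0 members passing in a direction, 0 to 2 members had an unadjusted p under 0.05 in that direction.

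**Figure D1:**
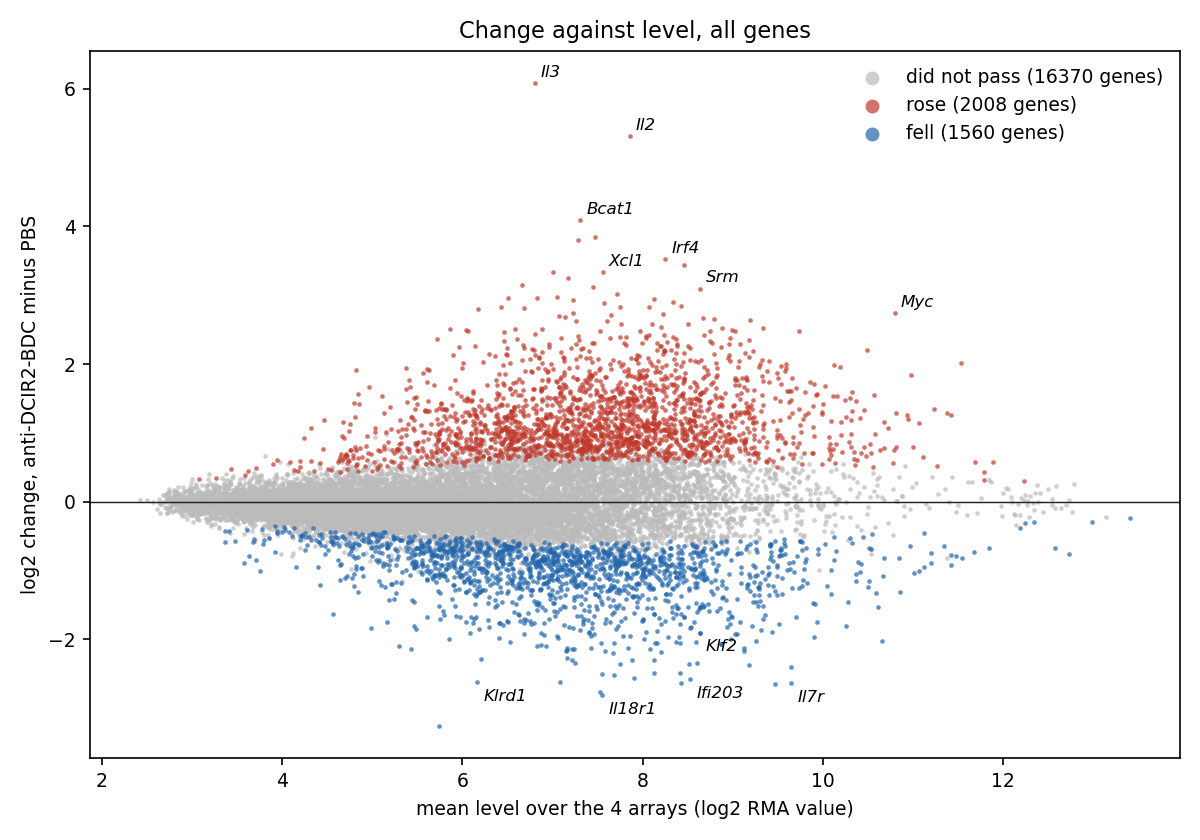
Log2 change after anti-DCIR2-BDC (vertical axis) against the mean level over the 4 arrays (horizontal axis, log2 RMA value), 1 point per gene, with genes that rose in red (2008), genes that fell in blue (1560) and the others in grey (16370). Il3 and Il2 stand above the other genes, and the largest falls are smaller than the largest rises.

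The sorted cells carried the markers of the labelled cell type. The 11 measured CD4 T cell markers had a median level of 10.62 under PBS, and the T cell receptor chain Cd3e was brighter than 99.8% of genes there. Markers of other cells had median levels between 4.85 and 5.94, near the median of the arrays (5.43 to 5.56). By limma 0 of 11 B cell, 13 macrophage, 10 neutrophil and 3 erythroid markers passed, and at an unadjusted p under 0.05 the counts were 1, 2, 1 and 0. The summed linear level of the B cell markers was 369 and 333 under PBS and 345 and 289 after the antibody. Clec4a4, which encodes the receptor targeted by the injected antibody, was brighter than only 3.39% of genes in these T cells, with a change of 0.14 (adjusted p = 0.591). Ly75 was brighter, at 7.37 and 7.50 on the PBS arrays and 6.41 and 6.26 on the anti-DCIR2-BDC arrays, and fell 2.15-fold (adjusted p = 0.00182). Of the CD4 T cell markers 7 of 11 fell (5 in every alternative), among them Cd3d (-1.03), Cd3e (-0.74) and Cd28 (-0.88). Their summed linear level was 18583 and 19167 under PBS and 11813 and 11331 after anti-DCIR2-BDC. The summed level of 8 natural killer cell markers was 794 and 705 under PBS and 378 and 419 after the antibody. In that list 4 of 8 fell, of which only Klrd1 in every alternative, while Ncr1 and Klrb1c, which define natural killer cells more closely, were brighter than only 12.9% and 6.54% of genes. Of 10 stromal and endothelial markers 1 fell, Pecam1, an adhesion molecule also found on T cells, from 8.45 and 9.24 to 6.75 and 7.02. Of 3 CD8 T cell markers 1, Eomes, rose 2.09-fold, a call that ended when PBS array 2 or either antibody array was left out (adjusted p = 0.139, 0.0506 and 0.177), and Cd8a stood at 5.19 and 5.03 under PBS and 4.84 and 5.0 after the antibody. Fewer cells of a type and less RNA per cell cannot be told apart in these bulk samples, and the part of the marker levels in the other results was not tested.

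The cytokines interleukin 3 and interleukin 2 gave the largest changes of the whole comparison in RMA values. Il3, a growth factor for blood cell precursors that activated T cells secrete, read 3.67 and 3.84 on the PBS arrays and 9.35 and 10.34 on the anti-DCIR2-BDC arrays. It was among the dim genes under PBS, brighter than 6.57% of genes and near the median of the olfactory and vomeronasal receptors (3.71), a family not expected in lymphocytes. Its PBS level was thus not shown to lie above background, and the size of the rise rests on that level. In RMA values it rose 68.0-fold (log2 change 6.09, SE 0.48, adjusted p = 4.81e-05). Il2, the main T cell growth factor, read 4.65 and 5.75 under PBS and 10.40 and 10.62 after the antibody, a 39.8-fold rise (log2 change 5.31, SE 0.33, adjusted p = 3.39e-05). All arrays of the antibody group lay far above those of the PBS group for both genes. NFAT, the calcium-dependent factor of the T cell receptor pathway, binds DNA around a GGAAA core. The 250 bases before the start of these 2 genes are shown in the gene's direction, because these genes lead the comparison, with each GGAAA or its reverse complement TTTCC in capitals (RefSeq, GRCm38.p6, minus strand, chr3:37125955-37126204 for Il2 and chr11:54267280-54267529 for Il3).
Il2: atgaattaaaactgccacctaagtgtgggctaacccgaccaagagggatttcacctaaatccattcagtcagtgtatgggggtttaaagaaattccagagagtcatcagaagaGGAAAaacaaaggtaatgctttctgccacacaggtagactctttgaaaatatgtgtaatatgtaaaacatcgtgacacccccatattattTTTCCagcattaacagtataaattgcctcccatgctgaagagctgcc
Il3: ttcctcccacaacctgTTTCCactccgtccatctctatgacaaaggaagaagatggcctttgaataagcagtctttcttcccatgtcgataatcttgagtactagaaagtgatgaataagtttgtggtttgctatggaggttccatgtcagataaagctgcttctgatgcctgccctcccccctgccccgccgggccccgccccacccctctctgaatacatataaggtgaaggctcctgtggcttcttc
The Il2 window held 2 matches, at positions -137 and -47 from the gene start, and the Il3 window 1, at -234. GGAAA on either strand is common: it was found in 58.9% of the promoter windows of all 15614 genes that had one, and in 19 of 21 cytokine and chemokine genes.

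Among 25 cytokines and chemokines 14 rose (8 in every alternative) and 2 fell (1 without PBS array 1 or anti-DCIR2-BDC array 2), with a median change of 1.07. The chemokine Xcl1, which attracts cross-presenting dendritic cells, read 6.26 and 5.51 under PBS and 9.08 and 9.37 after anti-DCIR2-BDC and rose 10.1-fold. Ccl1, the ligand of Ccr8, read 5.73 and 5.37 and then 9.0 and 8.60, a 9.51-fold rise, and Ccr8 itself rose 5.62-fold from 4.60 and 4.99 to 6.70 and 7.87. Tumour necrosis factor (Tnf) rose 4.59-fold, the follicular helper cytokine Il21 2.60-fold and Il17a 2.47-fold. Macrophage migration inhibitory factor (Mif), already brighter than 99.3% of genes under PBS at 10.50 and 10.54, reached 12.49 and 12.58. Lymphotoxin beta (Ltb), a membrane cytokine of resting lymphocytes, moved the other way, from 10.85 and 11.16 to 9.37 and 9.72, a 2.76-fold fall. The inflammatory chemokine Ccl3 rose 5.72-fold, a call that ended when anti-DCIR2-BDC array 2 was left out (adjusted p = 0.0716) or all probe sets were tested (0.0656). Without that array 9 of the 25 genes rose. Interferon gamma (Ifng), the Th1 cytokine, rose 2.11-fold (adjusted p = 0.0423), but 6 alternatives ended this call, with adjusted p between 0.0588 and 0.295, and without PBS array 2 the log2 change was 0.57. The Th2 cytokine Il4 differed by 0.14 (adjusted p = 0.618, 95% interval -0.18 to 0.46) and the anti-inflammatory Il10 by 0.25 (adjusted p = 0.504, -0.21 to 0.70).

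Among transcription factors of the early T cell receptor response more rose than fell, with 15 of 31 higher (11 in every alternative) and 4 lower. Irf4, which scales with receptor signal strength and drives expansion, read 6.46 and 6.51 under PBS and 9.78 and 10.24 after the antibody, an 11.5-fold rise (adjusted p = 3.0e-05). The orphan nuclear receptors Nr4a3 and Nr4a1, immediate targets of receptor signalling, rose 7.08-fold and 4.88-fold. Myc, the master regulator of T cell growth, was bright already under PBS at 8.86 and 9.99 and reached 12.14 and 12.19, a 6.68-fold rise. Pou2af1, a B cell coactivator also found in helper T cells, rose 4.23-fold, and the AP-1 member Fosl1 3.61-fold. AP-1 members moved both ways, since Jun fell 2.88-fold, from 10.15 and 10.03 to 8.81 and 8.33. Egr1, another immediate-early factor, stood at 8.28 and 8.24 under PBS and 8.11 and 8.19 after the antibody and did not pass (adjusted p = 0.768). The count of falling factors was 1 without PBS array 1 and 2 without either antibody array.

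At the cell surface, 10 of 19 costimulatory and activation receptors rose (9 in every alternative) and 3 fell, all 3 in every alternative. Cd200, an immunoregulatory glycoprotein of activated T cells, rose 7.69-fold from 6.53 and 6.78 to 9.48 and 9.71. The transferrin receptor Tfrc rose 5.18-fold, the high-affinity interleukin 2 receptor chain Il2ra 5.04-fold from 7.27 and 7.88 to 9.80 and 10.02, and Cd24a 6.97-fold. The 3 that fell were Cd2 (-1.15), Slamf6 (-1.15) and Cd28 (-0.88). Cd69, an early activation antigen, stood at 9.66 and 9.33 under PBS and 9.62 and 9.76 after the antibody (adjusted p = 0.533), so that its groups overlapped. In the TNF family 9 of 36 rose (5 in every alternative) and 4 fell, or 1 without PBS array 2 or anti-DCIR2-BDC array 1. OX40 (Tnfrsf4), a costimulator of activated CD4 T cells, rose 6.21-fold from 7.72 and 8.04 to 10.33 and 10.69. 4-1BB (Tnfrsf9) rose 5.12-fold, RANKL (Tnfsf11) 4.40-fold and LIGHT (Tnfsf14) 4.03-fold, while Tnfrsf26 fell 3.72-fold. Of 14 inhibitory receptors 5 rose (3 in every alternative), such as Lag3 (2.53-fold), Pdcd1 (2.47-fold) and Tigit (2.38-fold), and 2 fell, or 1 without PBS array 1 or either antibody array. The call of Pdcd1, which encodes PD-1, ended when anti-DCIR2-BDC array 1 was left out (adjusted p = 0.0826) or all probe sets were tested (0.0564).

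**Figure D2:**
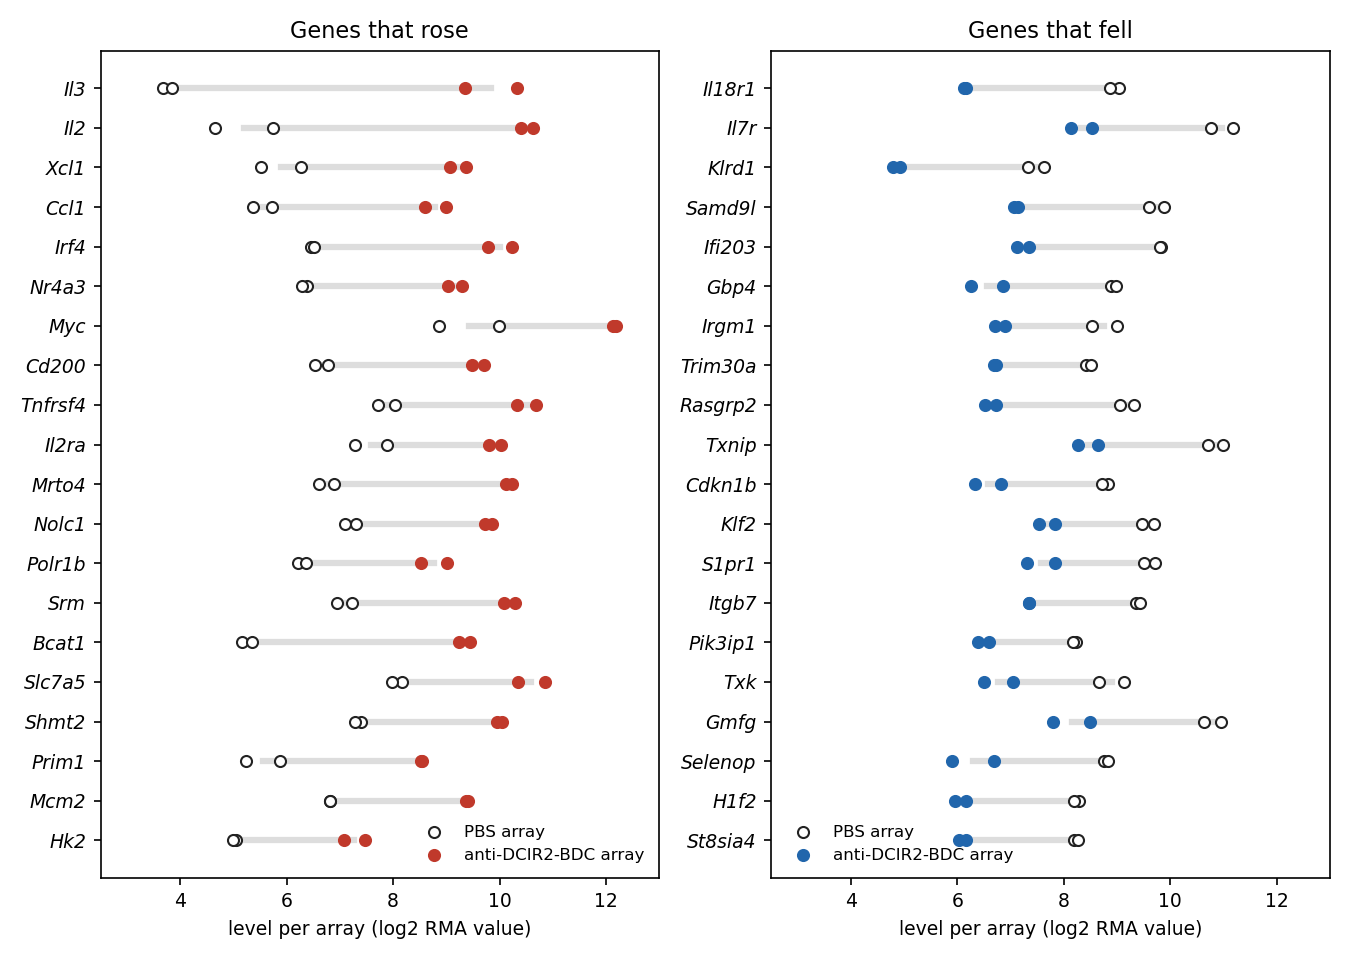
Level on each array (horizontal axis, log2 RMA value) of 20 genes that rose (left panel) and 20 that fell (right panel), with open points for the 2 PBS arrays, filled points for the 2 anti-DCIR2-BDC arrays and a grey bar between the group means. In no gene shown do the groups overlap, and Il3 moves furthest, from 3.67 and 3.84 to 9.35 and 10.34.

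Among cytokine receptors more fell than rose: 17 of 51 fell (11 in every alternative, and 11 with all probe sets tested) and 3 rose. Il18r1, the receptor chain for interleukin 18, read 9.04 and 8.86 under PBS and 6.13 and 6.15 after anti-DCIR2-BDC, a 7.01-fold fall (adjusted p = 7.60e-05). Il7r, which naive and memory T cells need to survive, read 11.17 and 10.76 and then 8.53 and 8.13, a 6.25-fold fall. Both chains of the interferon gamma receptor fell, Ifngr1 3.63-fold and Ifngr2 2.91-fold, as did the interleukin 10 receptor chain Il10ra (3.14-fold). Both chains of the type I interferon receptor fell, Ifnar2 2.39-fold and Ifnar1 1.98-fold, though the call of Ifnar1 ended when PBS array 2 (adjusted p = 0.0728) or anti-DCIR2-BDC array 1 (0.113) was left out, or all probe sets were tested (0.0582). The shared interleukin 2 receptor chain Il2rb read 9.43 and 8.95 under PBS and 9.49 and 9.49 after the antibody and did not pass (adjusted p = 0.387). Of 22 chemokine receptors 7 fell and 1, Ccr8, rose, but none of the 7 falls held in every alternative, and the count was 2 without PBS array 1, 4 without PBS array 2, 2 without anti-DCIR2-BDC array 1 and 1 without array 2. The largest of these falls, in the bone marrow and lymphoid homing receptor Cxcr4, was 5.66-fold, with arrays at 10.49 and 8.85 under PBS and 7.78 and 6.56 after the antibody. Its call ended when PBS array 1 (adjusted p = 0.112) or anti-DCIR2-BDC array 2 (0.171) was left out, or all probe sets were tested (0.121).

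Signalling molecules next to the T cell receptor fell too, with 15 of 32 lower (12 in every alternative) and 1 higher. The Tec kinase Txk read 8.66 and 9.14 under PBS and 6.50 and 7.04 after the antibody, a 4.38-fold fall. The adaptors Skap1, Trat1 and Grap2 fell 3.68-fold, 3.29-fold and 3.16-fold. Zap70, the kinase that docks on the phosphorylated receptor, was the exception, rising 2.48-fold from 8.45 and 8.87 to 9.79 and 10.16. Feedback inhibitors of kinase signalling split evenly, with 7 of 48 higher and 7 lower (4 of each in every alternative). Rising members included the phosphatase Dusp4, which acts on MAP kinases (7.02-fold), and Spry1 (4.69-fold), an inhibitor of Ras signalling. Falling members included Rasa3, a Ras GTPase-activating protein (5.13-fold), and Dgka, a kinase that removes diacylglycerol and whose level went from 11.49 and 11.85 to 9.51 and 9.76 (4.09-fold). The number that rose was 4 without anti-DCIR2-BDC array 2, and the number that fell was 4 without either antibody array. Rasgrp2, an exchange factor for Rap1 in integrin control, fell 5.92-fold from 9.32 and 9.06 to 6.51 and 6.73.

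Ribosome building gave the largest rising share (93.0%) of the lists plotted. Of 100 ribosome assembly factors 93 rose (82 in every alternative), 85 of them at least 2-fold, and 0 fell; their median change was 1.65. Mrto4, an assembly factor of the large subunit, read 6.60 and 6.89 under PBS and 10.23 and 10.12 after anti-DCIR2-BDC, a 10.8-fold rise (adjusted p = 1.97e-05). Pno1, which acts in small subunit assembly, rose 8.08-fold from 6.29 and 6.12 to 9.01 and 9.42. The nucleolar chaperone Nolc1 rose 6.01-fold, the H/ACA snoRNP protein Nhp2 5.75-fold and the rRNA methyltransferase Nop2 5.60-fold. Among RNA polymerase I and III subunits and cofactors, which transcribe ribosomal and transfer RNA, 21 of 35 rose (14 in every alternative). Polr1b, the second largest subunit of polymerase I, rose 5.61-fold, whereas Maf1, a repressor of polymerase III, fell 2.13-fold and was 1 of 2 that fell, or the only one without anti-DCIR2-BDC array 1. The proteins of the cytosolic ribosome itself gave other counts than their assembly factors. Of these, 6 of 59 rose (10.2%) and 2 fell (3.39%), with a median change of 0.03. Their median level under PBS was 12.06, and both shares lay below those of the brightest quartile of genes (26.3% and 16.3%). The bright member Rplp1 changed by -0.05 and did not pass (adjusted p = 0.761). One member, Rps27l, a p53-linked paralogue of Rps27, rose 3.09-fold in every alternative. The count of rising members was 2 without PBS array 2, 3 without anti-DCIR2-BDC array 1 and 1 without array 2, and that of falling members 0 without PBS array 2 and 1 without PBS array 1 or anti-DCIR2-BDC array 1. Of 54 small nucleolar RNAs, which guide rRNA modification, 17 rose (6 in every alternative) and 5 fell, or 2 without any 1 of the 4 arrays compared. Snora73b rose 5.56-fold from 7.70 and 7.87 to 10.37 and 10.15, and Snora74a 5.24-fold. Without anti-DCIR2-BDC array 2 the number that rose was 8, and it was 7 with every probe set tested. The largest fall of the comparison, Snord61, read 9.02 and 5.71 under PBS and 3.53 and 4.69 after the antibody and rested on PBS array 1: its change was -3.26, or -1.60 without that array. Its call ended when anti-DCIR2-BDC array 1 (adjusted p = 0.153) or array 2 (0.0511) was left out, with a robust trend (0.194) and with all probe sets tested (0.125).

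Genes that load or modify transfer RNA and factors that translate messages rose as well. Of 35 aminoacyl-tRNA synthetases and partners 20 rose (17 in every alternative) and 0 fell, led by Iars, the isoleucine enzyme (4.31-fold, from 8.10 and 8.15 to 10.27 and 10.19). Scaffold proteins of the synthetase complex, Aimp2 and Aimp1, rose 3.86-fold and 3.75-fold. Among 40 tRNA modification enzymes 23 rose (14 in every alternative) and 0 fell. Mettl1, which methylates guanosine in tRNA, led with a 7.62-fold rise, from 5.59 and 5.93 to 8.49 and 8.88, before the pseudouridine synthase Pus7 (5.54-fold) and the cytosine methyltransferase Nsun2 (4.19-fold). Of 65 initiation and elongation factors 38 rose (28 in every alternative) and 1 fell, or 0 without any 1 of the 4 arrays compared. Eef1e1, a synthetase-associated elongation factor homologue, rose 6.63-fold, the hypusine-bearing Eif5a 3.88-fold from 9.19 and 9.23 to 11.08 and 11.25, and the scaffold subunit Eif3b 3.75-fold. The main elongation factor Eef1a1 read 11.36 and 11.45 under PBS and 11.30 and 11.48 after the antibody and did not pass (adjusted p = 0.969).

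Nuclear export and import, splicing and protein folding followed the same direction. Of 51 nuclear pore and transport factors 36 rose (24 in every alternative) and 0 fell; the pore protein Nup43 rose 6.43-fold and the importin Kpna2 5.19-fold from 6.93 and 6.77 to 9.12 and 9.33. Of 72 splicing factors and hnRNPs 32 rose (23 in every alternative) and 1 fell, or 0 without PBS array 2 or anti-DCIR2-BDC array 1. The Sm core protein Snrpd1 led the splicing genes at 4.02-fold. The cytosolic chaperonin, which folds actin and tubulin, rose in most parts: 12 of 16 CCT and prefoldin genes rose (10 in every alternative), with a median change of 1.40 and 5.35-fold for Cct3. Heat shock chaperones were more divided, with 28 of 90 higher (19 in every alternative), among them the mitochondrial chaperonin Hspd1 (4.59-fold, from 9.68 and 9.09 to 11.59 and 11.58), and 3 lower, or 1 without PBS array 1 or either antibody array. Of 50 proteasome subunits and assembly factors 36 rose (26 in every alternative), such as Psmd1 (3.46-fold) and Psmb2 (3.34-fold). In that list 1 fell, or 2 without either anti-DEC205-BDC array and 3 with quantile normalization. It was Psmb9, the interferon-inducible catalytic subunit of the immunoproteasome, which fell 2.73-fold from 10.03 and 10.01 to 8.71 and 8.44. In the endoplasmic reticulum 14 of 30 chaperone and stress genes rose (9 in every alternative), led by Pdia6 (3.24-fold) and Hyou1 (2.85-fold), and 3 fell, or 0 to 1 without any 1 of the 4 arrays compared. Of 19 targets of the stress factor ATF4 3 rose and 1 fell (0 to 2 without any 1 of the 4 arrays compared), with a median change of 0.01, and asparagine synthetase (Asns) rose 4.04-fold.

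**Figure D3:**
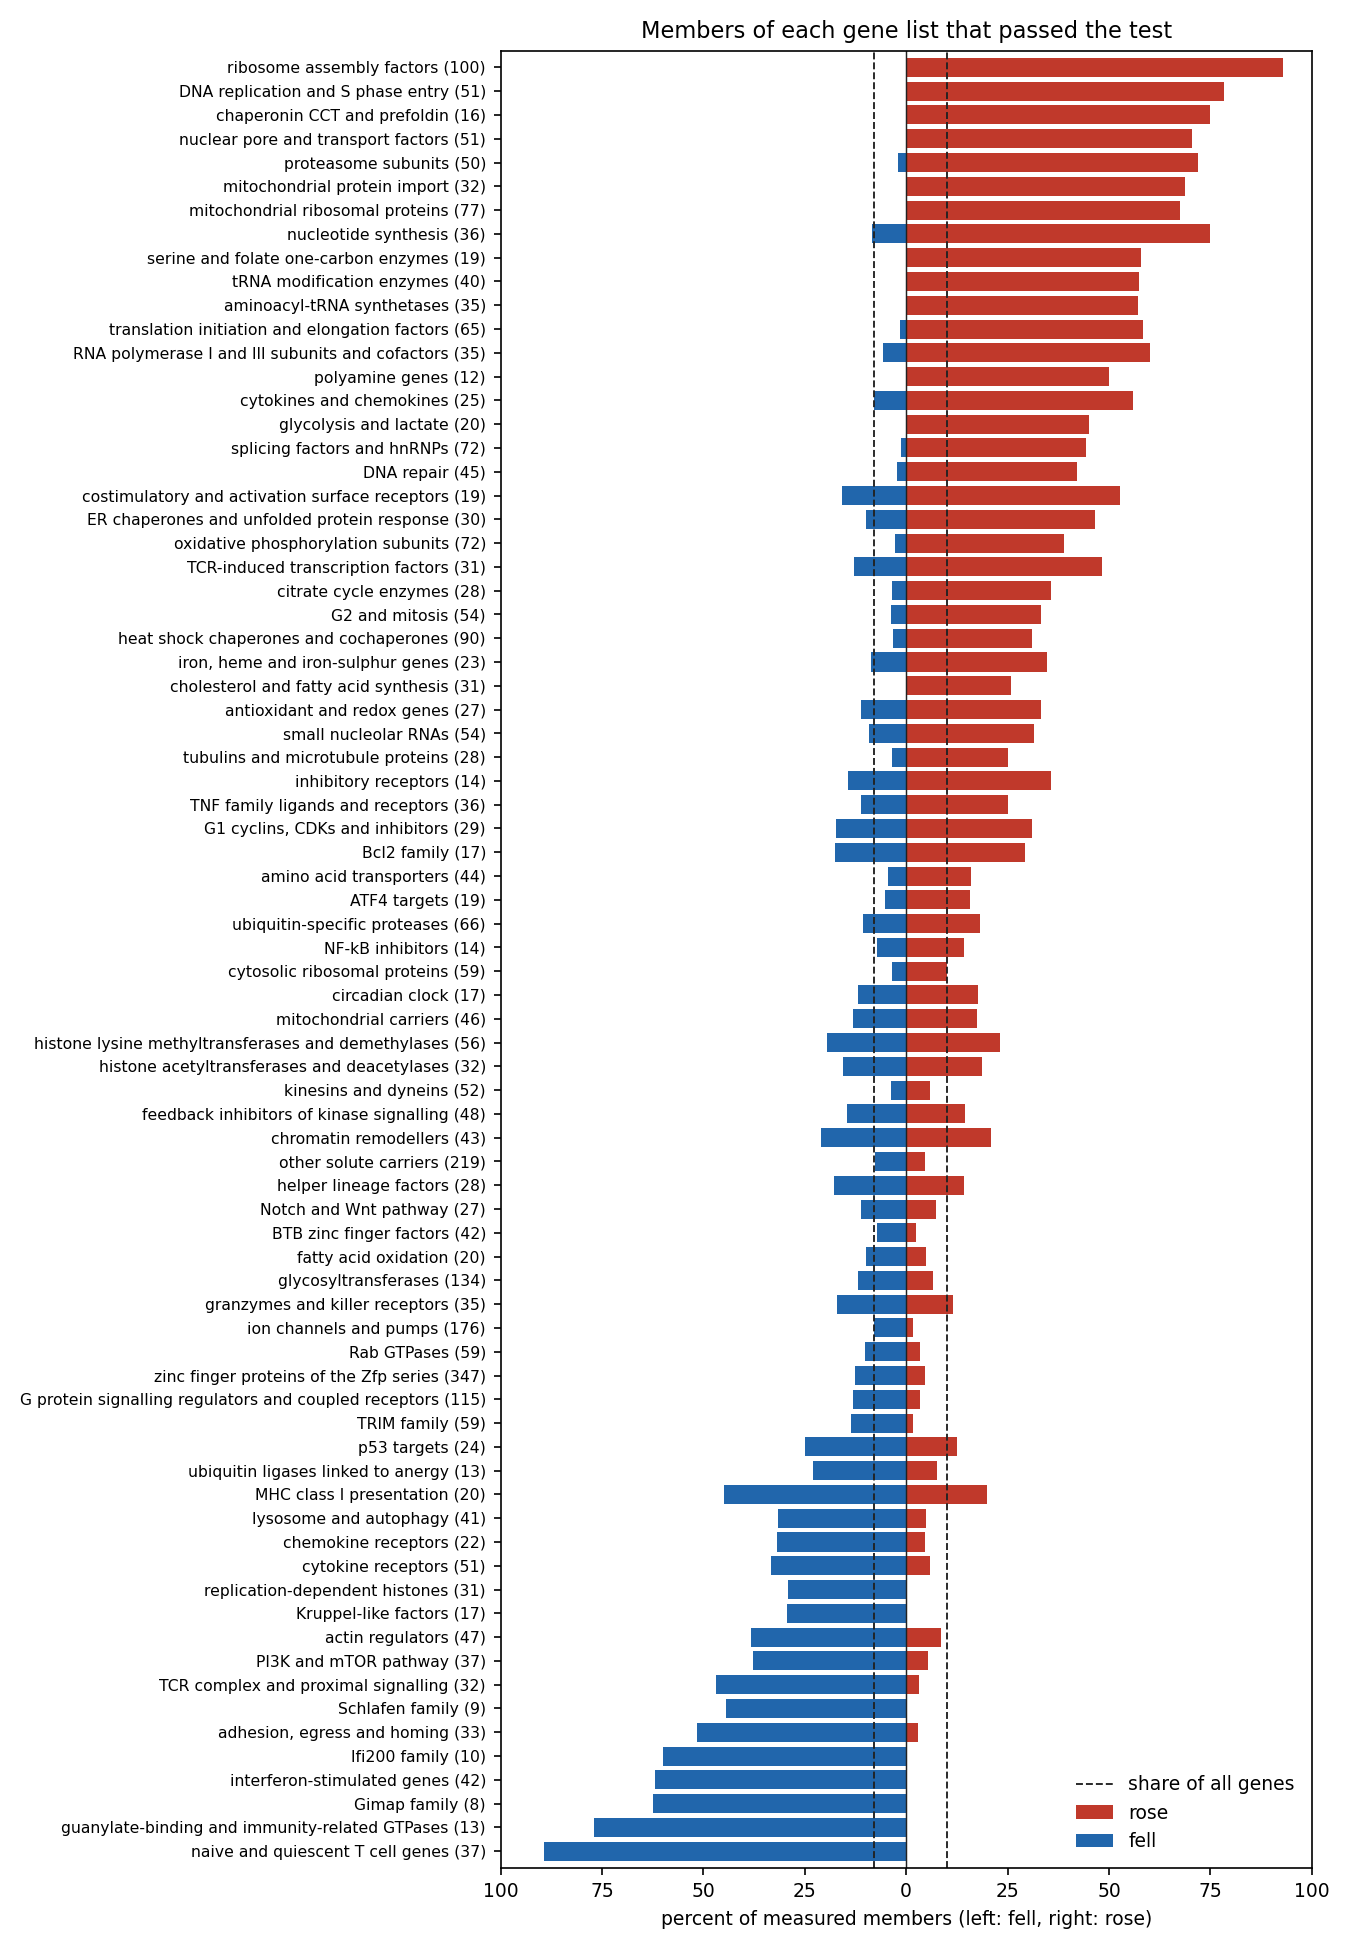
Percent of the measured members of each gene list (number in brackets) that rose (red, to the right) or fell (blue, to the left); dashed lines mark the shares of all genes that rose (10.1%) and fell (7.82%). Ribosome assembly factors lie at the top with 93.0% higher, and naive and quiescent T cell genes at the bottom with 89.2% lower.

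Genes of DNA replication rose. Of 51 genes of replication and S phase entry 40 rose (31 in every alternative) and 0 fell, with a median change of 1.17. The primase Prim1 read 5.23 and 5.88 under PBS and 8.55 and 8.52 after the antibody, a 7.87-fold rise, and the helicase subunit Mcm2 read 6.82 and 6.81 and then 9.37 and 9.42, a 5.98-fold rise. Cdca7 and Hells, partners in chromatin remodelling at replicating DNA, rose 13.9-fold and 7.76-fold. Of 54 genes of G2 and mitosis 18 rose (11 in every alternative) and 2 fell, with a median of 0.36. Condensin subunits Ncaph (3.42-fold) and Smc2 (3.23-fold) and topoisomerase Top2a (2.99-fold) led these, from low levels such as 5.12 and 5.19 for Top2a. Without the dimmest 50% of genes, where members removed by the filter were not tested, 8 of them rose. The proliferation antigen Mki67 stood at 5.61 and 5.50 under PBS and 5.75 and 5.53 after the antibody (adjusted p = 0.870, 95% interval -0.39 to 0.55). Among 29 genes of the G1 phase 9 rose, all in every alternative, and 5 fell (4 in every alternative). Cdk6, a kinase that starts the cycle, rose 7.09-fold from 6.14 and 7.18 to 9.44 and 9.52, and the inhibitor of such kinases Cdkn1b (p27) fell 4.60-fold from 8.83 and 8.72 to 6.82 and 6.32. Replication-dependent histone genes went down, with 9 of 31 lower (5 in every alternative) and 0 higher; the linker histone H1f2 fell 4.52-fold and H4c14 2.53-fold. Of 45 DNA repair genes 19 rose (9 in every alternative), led by the checkpoint kinase Chek1 (5.67-fold) and the uracil glycosylase Ung (4.61-fold), and the count was 10 without PBS array 1 or anti-DCIR2-BDC array 1; 1 fell, or 0 without anti-DCIR2-BDC array 1.

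Metabolic genes that supply building blocks rose. Bcat1, which transaminates branched-chain amino acids, read 5.16 and 5.35 under PBS and 9.25 and 9.45 after the antibody, a log2 change of 4.09 and the third largest rise of the comparison. Of 36 nucleotide synthesis genes 27 rose (20 in every alternative), with CTP synthase (Ctps) at 6.52-fold, Uck2 at 5.22-fold and the pyrimidine enzyme Cad at 5.01-fold, and 3 fell, or 1 without either antibody array. Of 19 serine and folate one-carbon enzymes 11 rose (8 in every alternative) and 0 fell. Among them the mitochondrial serine hydroxymethyltransferase Shmt2 rose 6.35-fold from 7.40 and 7.27 to 9.96 and 10.05, Mthfd1 6.54-fold and the serine synthesis enzyme Psat1 6.20-fold. Polyamine genes gave 6 of 12 higher (4 in every alternative), led by spermidine synthase (Srm), which rose 8.55-fold from 6.95 and 7.23 to 10.08 and 10.29. Of 44 amino acid transporters 7 rose (5 in every alternative) and 2 fell, or 1 without PBS array 2 and 0 without anti-DCIR2-BDC array 2, with a median change of -0.05. Single carriers known from T cell activation did rise: Slc7a5, the carrier of large neutral amino acids, 5.75-fold from 8.16 and 7.98 to 10.34 and 10.85, and the glutamine carrier Slc1a5 4.11-fold. Of 20 glycolysis and lactate genes 9 rose (8 in every alternative) and 0 fell. Hexokinase 2 (Hk2) rose 4.77-fold from 5.04 and 5.0 to 7.08 and 7.46 and the lactate carrier Slc16a1 4.54-fold, and the glucose carrier Slc2a1 differed by 0.65 (adjusted p = 0.0595).

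Mitochondrial genes of protein synthesis and import rose. Of 77 mitochondrial ribosomal proteins 52 rose (30 in every alternative) and 0 fell, with a median of 1.03, against 6 of 59 for the cytosolic ribosome; 33 rose without anti-DCIR2-BDC array 2. Mrps6 led with 4.15-fold, from 7.30 and 7.94 to 9.85 and 9.50. Of 32 genes of mitochondrial protein import 22 rose (17 in every alternative) and 0 fell. Tomm5, a small subunit of the outer membrane pore, went from 5.19 and 4.99 to 7.55 and 8.92, a 8.85-fold rise. On the log2 scale the Tomm5 change was 3.15, or 2.46 without anti-DCIR2-BDC array 2 and 3.83 without array 1. Tomm40, the channel of that pore, rose 4.78-fold. Among 72 oxidative phosphorylation subunits 28 rose (14 in every alternative), led by cytochrome c (Cycs, 4.11-fold), and the count was 18 without PBS array 2 and 14 without anti-DCIR2-BDC array 2. In that list 2 fell, or 0 without PBS array 1 or anti-DCIR2-BDC array 2 and 1 without anti-DCIR2-BDC array 1. Of 28 citrate cycle genes 10 rose, or 5 without anti-DCIR2-BDC array 2, and 1 fell, or 0 without array 1. In lipid metabolism 8 of 31 synthesis genes rose (3 in every alternative), led by fatty acid synthase (Fasn, 3.39-fold) and acetyl-CoA carboxylase (Acaca, 2.76-fold). That count was 4 without PBS array 1, 5 without anti-DCIR2-BDC array 1 and 3 without array 2. The carnitine transferase Cpt1a, the entry step of fatty acid oxidation, went from 7.27 and 7.29 to 6.12 and 5.51, a 2.76-fold fall. Lysosome and autophagy genes leaned down, with 13 of 41 lower (5 in every alternative), including Atg13 (2.55-fold), and 7 without PBS array 2 or 5 without anti-DCIR2-BDC array 1; 2 rose, or 0 to 1 without PBS array 1 or either antibody array.

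Genes of the resting T cell gave the largest falling share (89.2%) of the lists plotted. Of 37 naive and quiescent T cell genes 33 fell (24 in every alternative), 28 of them at least 2-fold, and 0 rose; the median change was -1.33. Txnip, an inhibitor of glucose uptake, read a mean of 10.85 under PBS and 8.26 and 8.64 on the arrays after anti-DCIR2-BDC, a 5.29-fold fall. Pdcd4, a brake on translation, fell 4.36-fold from 10.30 and 10.07 to 7.94 and 8.18, and Igfbp4 4.19-fold. The Kruppel-like factor Klf2, which keeps naive T cells quiescent and recirculating, fell 3.74-fold from 9.47 and 9.70 to 7.53 and 7.83. Genes of recirculation fell too: the sphingosine phosphate receptor S1pr1, which guides exit from lymphoid organs, 4.12-fold from 9.50 and 9.71 to 7.30 and 7.83, and the integrin chain Itgb7 4.13-fold from 9.36 and 9.42 to 7.34 and 7.35. In all, 17 of 33 adhesion, egress and homing genes fell (12 in every alternative) and 1 rose, or 0 without PBS array 1 or anti-DCIR2-BDC array 2. Selplg, the ligand of P-selectin, fell 3.93-fold from 10.75 and 11.02 to 8.70 and 9.12. In the PI3K and mTOR pathway 2 of 37 rose, or 0 to 1 without any 1 of the 4 arrays compared, and 14 fell (8 in every alternative), led by the PI3K inhibitor Pik3ip1 (3.26-fold, from 8.23 and 8.16 to 6.59 and 6.39) and the mTORC1 inhibitor Sesn1 (2.86-fold). Of the Gimap GTPases, which support lymphocyte survival, 5 of 8 fell (4 in every alternative), and of the Schlafen family 4 of 9 fell, or 2 without anti-DCIR2-BDC array 1, led by Slfn5 (4.12-fold).

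Interferon-inducible genes fell in several families at once. Of 42 interferon-stimulated genes 26 fell (20 in every alternative) and 0 rose, with a median of -0.95. Samd9l, an antiviral inhibitor of translation, read 9.88 and 9.60 under PBS and 7.07 and 7.13 after the antibody, a 6.25-fold fall. Zbp1, a sensor of nucleic acids, fell 4.15-fold, and Ddx58, which encodes RIG-I, 3.97-fold. Of 13 guanylate-binding and immunity-related GTPases, which attack vacuoles of intracellular microbes, 10 fell (8 in every alternative), with Gbp4 going from 8.88 and 8.98 to 6.26 and 6.86 (5.16-fold). Of 10 genes of the Ifi200 family, many of them DNA sensors, 6 fell (4 in every alternative), and Ifi203 went from 9.83 and 9.80 to 7.35 and 7.11, a 6.0-fold fall. The count of this family was 3 without the dimmest 50% of genes, where members removed by the filter were not tested. Genes of this family are similar enough that probe sets may share signal. In MHC class I presentation 9 of 20 fell (5 in every alternative), among them Psmb9 (2.73-fold) and the peptide transporter Tap1 (2.26-fold), and 4 rose. Members of the interferon list that did not fall included Ly6e, at 9.78 and 9.51 under PBS and 9.92 and 10.12 after the antibody (adjusted p = 0.193), and Bst2, at 7.98 and 7.94 and then 8.40 and 8.69 (adjusted p = 0.0751). Factors of the IRF family bind an element in which GAAA recurs after a pair of free bases. Sites bound by STAT factors alone were not searched. The promoters of 3 genes that fell are shown as examples, because members of these families moved together. All 3 hold a match, so they do not show how common the element is. Each is the 250 bases before the gene start in the gene's direction (RefSeq, GRCm38.p6, minus strand), with matches to that element or its reverse complement in capitals. They lie at chr11:48871421-48871670 for Irgm1, chr7:104465194-104465443 for Trim30a and chr1:173942493-173942742 for Ifi203, and for the last 2 genes, which have 2 windows each, the window with the most matches is given.
Irgm1: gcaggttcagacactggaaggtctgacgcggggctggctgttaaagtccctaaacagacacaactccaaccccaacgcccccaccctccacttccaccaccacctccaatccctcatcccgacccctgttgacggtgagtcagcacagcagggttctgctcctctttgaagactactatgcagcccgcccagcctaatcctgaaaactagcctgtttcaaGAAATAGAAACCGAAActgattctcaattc
Trim30a: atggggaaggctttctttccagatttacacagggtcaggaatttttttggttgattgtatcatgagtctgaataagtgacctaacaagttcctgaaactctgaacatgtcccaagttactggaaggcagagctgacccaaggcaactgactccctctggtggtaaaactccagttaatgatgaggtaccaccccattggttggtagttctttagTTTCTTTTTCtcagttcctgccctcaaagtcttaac
Ifi203: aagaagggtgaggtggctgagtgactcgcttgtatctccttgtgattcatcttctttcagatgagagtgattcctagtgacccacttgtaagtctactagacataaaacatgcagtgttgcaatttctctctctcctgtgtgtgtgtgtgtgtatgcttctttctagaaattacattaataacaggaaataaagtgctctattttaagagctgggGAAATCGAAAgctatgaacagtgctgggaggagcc
Irgm1, an immunity-related GTPase with overlapping matches at -30 and -24 from the gene start, fell 3.90-fold from 9.01 and 8.52 to 6.90 and 6.70. Trim30a, an interferon-inducible ubiquitin ligase with 1 match at -36, fell 3.40-fold from 8.42 and 8.51 to 6.72 and 6.68. The element was found in the windows of 3.4% of all genes with one, 8 of 29 interferon-stimulated genes and 5 of 6 GTPase genes, in 5.26% of the genes that fell and in 2.98% of those that rose.

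More actin regulators fell than rose. Of 47 actin regulators 18 fell (10 in every alternative) and 4 rose, with filamin A (Flna) going from 9.29 and 9.54 to 7.68 and 8.01 (2.97-fold) and the Rac exchange factor Dock2 from 9.83 and 10.11 to 8.58 and 8.62 (2.58-fold). Without anti-DCIR2-BDC array 2, 10 of them fell, and without PBS array 1 or either antibody array 2 rose. Gmfg, which acts on branched actin, fell 6.28-fold from 10.63 and 10.96 to 7.79 and 8.50. The count that fell was 15 of 115 among G protein-coupled receptors and their regulators (8 in every alternative), or 9 without anti-DCIR2-BDC array 2. Rgs16, which damps chemokine receptor signals, was the largest of 4 rises in that list at 6.32-fold, from 7.72 and 7.19 to 10.13 and 10.11.

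Of 134 glycosyltransferases 16 fell (11.9%, 5 in every alternative) and 9 rose (6.72%, 3 in every alternative), against 7.82% and 10.1% of all genes. The number that fell was 7 without anti-DCIR2-BDC array 1, and the number that rose 5 without PBS array 1 and 3 without anti-DCIR2-BDC array 2. The 3 largest falls and the largest rise of this list were in sialyltransferases, enzymes that add sialic acid, which were not counted as a list of their own. St8sia6, St8sia4 and St6galnac1 fell 4.40-fold, 4.38-fold and 4.31-fold, with St8sia4, which builds polysialic acid, going from 8.18 and 8.27 to 6.03 and 6.16. St6galnac4, a sialyltransferase that caps short O-glycans, rose 5.33-fold from 5.95 and 6.20 to 8.06 and 8.92.

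Chromatin regulators also went both ways, as did the brightest quartile of genes (26.3% rose and 16.3% fell, against 10.1% and 7.82% of all genes). Shares that rose and fell were 23.2% and 19.6% for methyltransferases and demethylases and 20.9% and 20.9% for remodellers. For acetyltransferases and deacetylases they were 18.75% and 15.62%. Median PBS levels of these lists were 7.29, 7.74 and 7.28, so the movement both ways is not shown to be particular to them. Of 56 methyltransferases and demethylases of histones and other proteins 13 rose (9 in every alternative) and 11 fell (4 in every alternative); 6 fell without PBS array 2 or anti-DCIR2-BDC array 1, and 7 without array 2. Smyd5 rose 6.15-fold and the arginine methyltransferases Prmt1 and Prmt5 rose 4.93-fold and 3.45-fold, whereas the demethylase Kdm7a fell 3.04-fold and the enhancer methyltransferase Kmt2c 2.64-fold. Of 43 remodellers 9 rose and 9 fell, with 3 of each in every alternative. The number that rose was 3 without PBS array 1 or anti-DCIR2-BDC array 1 and 4 without array 2, and the number that fell was 5 without PBS array 2 and 3 without anti-DCIR2-BDC array 2. Ruvbl1, a helicase that also serves snoRNP assembly, rose 7.51-fold from 6.35 and 7.41 to 9.78 and 9.80, and Chd2 fell 3.12-fold. Of 32 histone acetyltransferases and deacetylases 6 rose (4 in every alternative), led by Hat1 (3.90-fold), which acetylates newly made histones, and Hdac7 (3.74-fold). In that list 5 fell (1 in every alternative), or 3 without PBS array 1 and 1 without PBS array 2 or either antibody array, and Kat2b fell 3.39-fold. Of 17 Kruppel-like factors 5 fell (3 in every alternative, and 3 without anti-DCIR2-BDC array 1), with Klf6 and Klf3 beside Klf2 at 3.31-fold and 2.93-fold. Of 347 zinc finger genes of the Zfp series 16 rose (4.61%, against 10.1% of all genes), or 10 without PBS array 2, and 8 in every alternative. In that series 44 fell (12.7%, against 7.82% of all genes), but only 6 in every alternative. The count that fell ranged from 14 without anti-DCIR2-BDC array 1 to 28 without PBS array 2. It was 27 without PBS array 1 and 16 without anti-DCIR2-BDC array 2. Zfp36l2, an RNA-binding protein that destabilises messages, fell 2.33-fold from 10.88 and 10.43 to 9.53 and 9.34.

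Redox and iron genes rose in part. Of 27 antioxidant genes 9 rose (6 in every alternative) and 3 fell, with thioredoxins Txn2 (3.34-fold) and Txn1 (3.02-fold) and the mitochondrial peroxiredoxin Prdx3 (3.26-fold) in front. Of 23 iron, heme and iron-sulphur genes 8 rose (3 in every alternative), such as the heme synthesis enzyme Alad, which went from 5.52 and 6.47 to 8.01 and 7.79 (3.74-fold). That count was 5 without PBS array 1, PBS array 2 or anti-DCIR2-BDC array 1 and 3 without anti-DCIR2-BDC array 2, and 2 fell, or 1 without either PBS array or anti-DCIR2-BDC array 1. Of 219 other solute carriers 10 rose (4.57%, 8 in every alternative), a smaller share than the 10.1% of all genes. Nucleoside carriers of the Slc29 family were among them, with 3.54-fold for Slc29a3 and 3.51-fold for Slc29a1. In that list 17 fell (7.76%, near the 7.82% of all genes), or 10 without either antibody array. The largest of these falls was in the sodium-proton exchanger Slc9a9 (3.28-fold). Of 24 p53 targets 6 fell (4 in every alternative), led by the antiproliferative Btg2, which went from 10.51 and 10.03 to 8.34 and 8.14 (4.09-fold), and Trp53inp1 (3.32-fold), and 3 rose, or 1 without PBS array 1 or anti-DCIR2-BDC array 1.

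Survival genes, lineage factors and killer genes moved both ways. In the Bcl2 family 5 of 17 rose (29.4%) and 3 fell (17.65%), with 2 of each in every alternative, against 10.1% and 7.82% of all genes. Bcl2a1c rose 4.19-fold, although near-identical copies may share its probes. Bcl2, the survival factor of resting T cells, fell 2.11-fold from 8.96 and 8.92 to 7.81 and 7.91, and the mitophagy receptor Bnip3l fell 3.37-fold. Bcl2l1, which encodes Bcl-xL, rose 2.40-fold, a call that ended when anti-DCIR2-BDC array 2 was left out (adjusted p = 0.0775), where 3 members rose. Among 28 helper lineage factors 4 rose (3 in every alternative) and 5 fell, or 2 without PBS array 1, 0 without anti-DCIR2-BDC array 1 and 3 without array 2. Zbtb32, a BTB zinc finger repressor, rose 4.89-fold from 6.21 and 6.02 to 8.16 and 8.65, and the aryl hydrocarbon receptor Ahr rose 2.82-fold. Foxp3, the factor of regulatory T cells, stood at 8.20 and 8.43 under PBS and 8.22 and 7.89 after the antibody and did not pass (adjusted p = 0.472, 95% interval -0.71 to 0.19). Of 35 granzymes and killer receptors 4 rose and 6 fell, with 1 of each in every alternative; the number that rose was 1 without PBS array 2 or anti-DCIR2-BDC array 2, and the number that fell 2 without PBS array 1 or anti-DCIR2-BDC array 1 and 3 without array 2. Klrd1, the CD94 chain, went from 7.33 and 7.62 to 4.79 and 4.92, a 6.15-fold fall, while Serpinb6b, a protease inhibitor, rose 5.14-fold. Olfactory and vomeronasal receptors, taken as a family not expected in lymphocytes, gave 1 of 1190 higher and 11 lower. The number higher was 3 without PBS array 1, 4 with quantile normalization and 7 with median centring, and the number lower was 4 without either anti-DCIR2-BDC array.

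**Figure D4:**
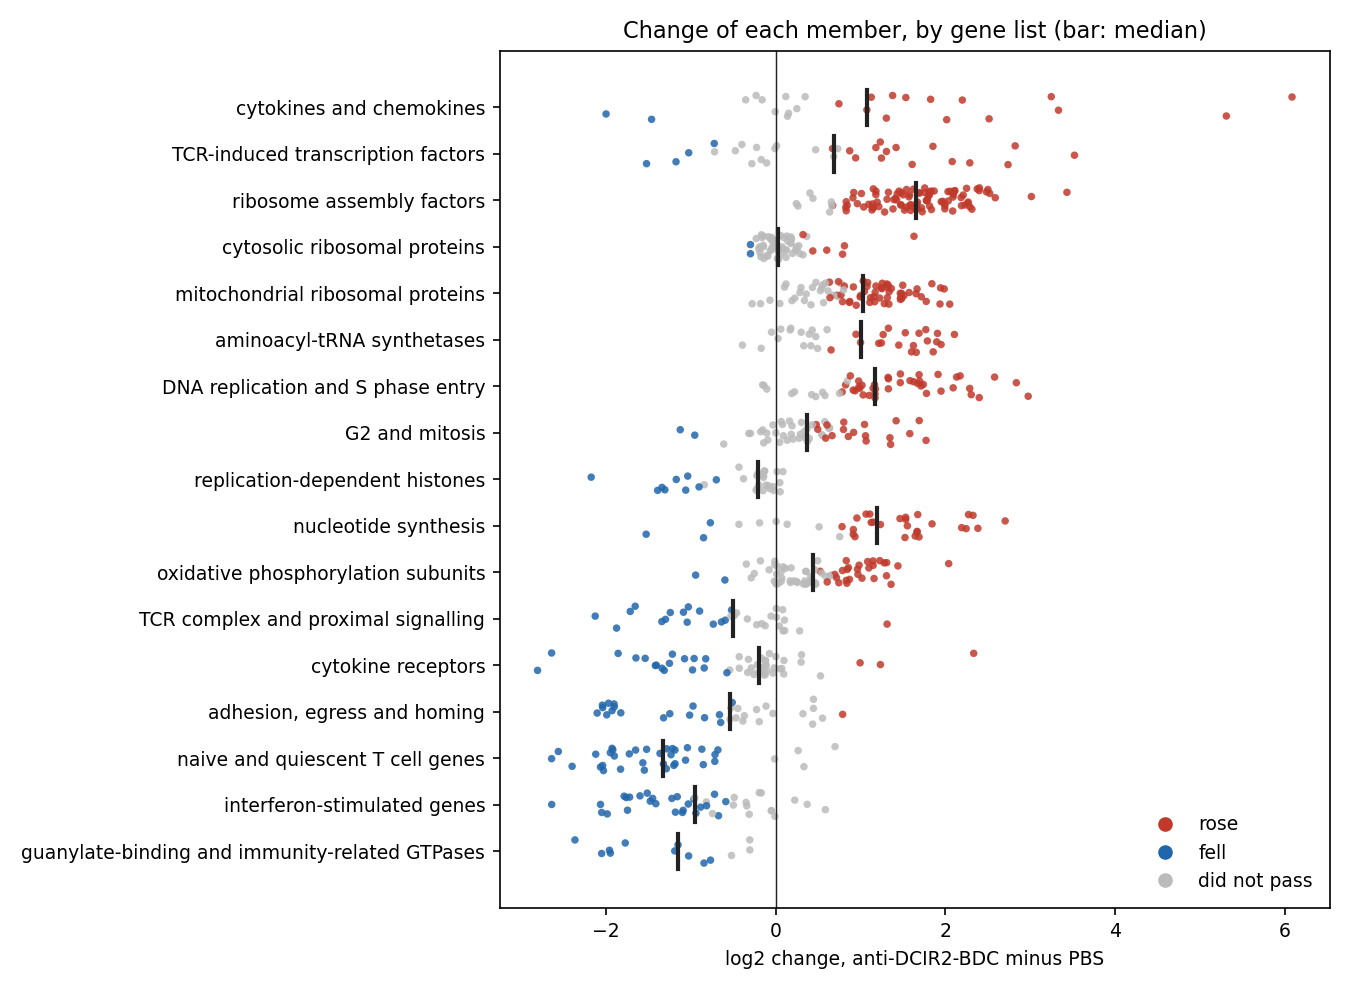
Log2 change of each measured member (points) of 17 gene lists, with members that rose in red, members that fell in blue and the others in grey; black bars are medians. Ribosome assembly factors (median 1.65) lie to the right of cytosolic ribosomal proteins (median 0.03), and naive and quiescent T cell genes (median -1.33) lie to the left of 0.

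Single genes outside these lists also changed widely. Utf1, a chromatin factor of stem cells, read 5.43 and 5.66 under PBS and 9.35 and 9.43 after anti-DCIR2-BDC, a 14.4-fold rise (adjusted p = 1.97e-05). Mfsd2a, a lysophospholipid carrier, rose 10.1-fold from 5.16 and 5.51 to 8.48 and 8.86, and the early endosome tether Eea1 8.66-fold from 6.10 and 5.68 to 8.97 and 9.04. The carbonic anhydrase Car12 rose 7.82-fold, the sterol-regulated Tmem97 7.39-fold and the receptor phosphatase Ptprs 6.71-fold. Selenop, a secreted carrier of selenium, fell 5.70-fold from 8.76 and 8.84 to 5.89 and 6.69. The glutathione transferase Mgst2 fell 4.92-fold, the sphingomyelinase-like Smpdl3a 4.95-fold, the ubiquitin ligase adaptor Klhl6 5.64-fold and the negative regulator of receptor signalling Sit1 4.42-fold. Near the threshold, the last genes to pass were Nelfcd (0.67), Map3k5 (-0.59) and Crnkl1 (0.59), and the first that did not were Cd46 (-0.98), Elk3 (-0.60) and Haus4 (-0.63). The calls of Nelfcd, Map3k5 and Crnkl1 ended in 9, 10 and 9 of the alternatives.

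Against anti-DEC205-BDC, the levels after anti-DCIR2-BDC differed in few genes by the test of that difference: 4 of 19938 passed (0.0201%), while 2036 had an unadjusted p under 0.05. All 4 were higher after anti-DCIR2-BDC. Il3 read 4.55 and 6.34 on the anti-DEC205-BDC arrays against 9.35 and 10.34 on the anti-DCIR2-BDC arrays, a difference of 4.40 (SE 0.48, limma adjusted p = 0.0289). Serpinb6b read 5.80 and 5.86 against 7.50 and 8.07 (3.88-fold), Zbtb32 6.40 and 6.68 against 8.16 and 8.65 (3.66-fold) and the carboxypeptidase Cpd 6.23 and 6.51 against 7.90 and 8.15 (3.15-fold). For these genes the arrays of the antibody groups did not overlap, though the share of all genes for which this held was not counted. Cpd also rose 5.43-fold from its PBS levels of 5.49 and 5.68. Il2 differed by 1.75 between the antibodies, with a 95% interval from 1.01 to 2.49 before adjustment, and did not pass (adjusted p = 0.166); nor did Ccl1, with 1.61 (1.13 to 2.09, adjusted p = 0.0679). Leaving out single arrays moved the count: it was 0 without anti-DCIR2-BDC array 1 or array 2, 1 without anti-DEC205-BDC array 1, where only Il3 passed, and 27 without anti-DEC205-BDC array 2. Genes that did not pass are not shown to respond alike to the antibodies.

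**Figure D5:**
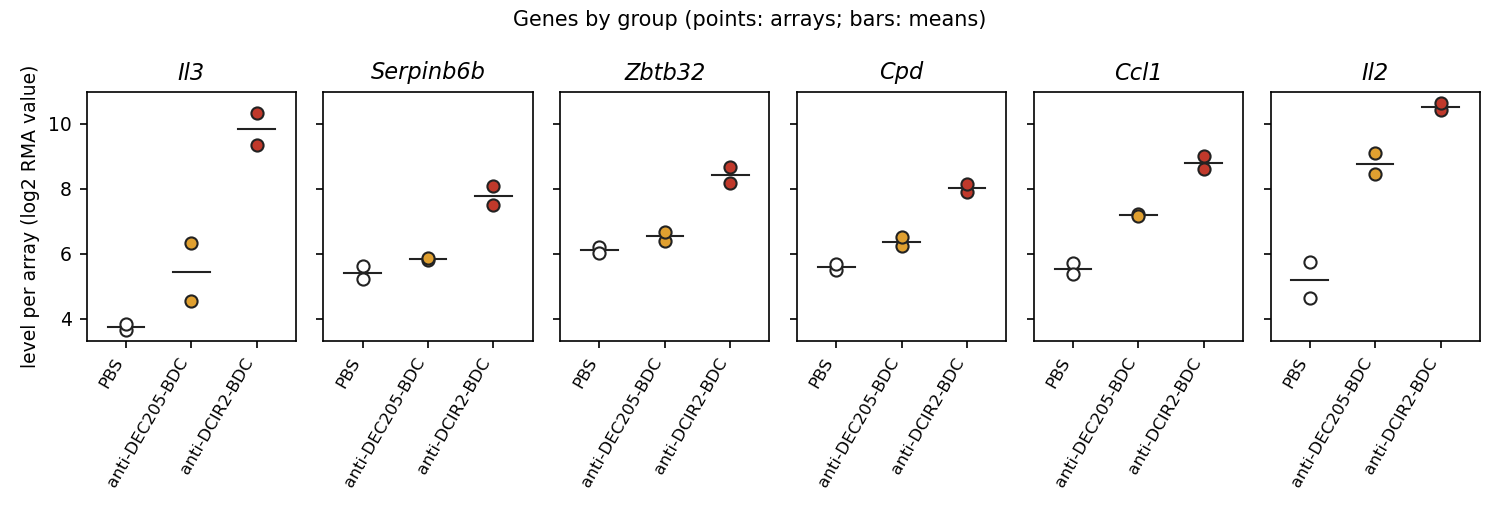
Level on each array (points, log2 RMA value) and group mean (bars) of Il3, Serpinb6b, Zbtb32, Cpd, Ccl1 and Il2 for PBS, for anti-DEC205-BDC and for anti-DCIR2-BDC, 2 arrays in each group. Il3, Serpinb6b, Zbtb32 and Cpd passed the test between the antibodies, and Ccl1 and Il2 did not.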

How the data were processed

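RNA of sorted cells was isolated with PicoPure, amplified with the NuGen Ovation kit and hybridised to Affymetrix Mouse Gene 1.0 ST arrays, per the labels' protocols. The authors deposited log2 values that they had made from the scanned arrays by RMA in Partek, per the submitters' processing notes; their versions and the genome build used are not given there. RMA gives all arrays nearly the same distribution of values, which hides any shift common to the whole transcriptome. Of 35556 probe sets, 21789 had 1 gene symbol in the platform annotation, 1621 had several and 12146 had none. They covered 19938 genes, of which 999 had several probe sets, and the one with the highest mean over the 6 arrays was used.

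One mean per group was fitted over the 6 arrays with limma 3.58.1 (R 4.3.3), with a variance trend on the mean, two-sided moderated tests and Benjamini-Hochberg adjustment over all genes (threshold 0.05). The scripts were tested on simulated data of 19938 genes, with 100 changed 2-fold and 100 changed 4-fold. Of these 90 and 100 were recovered, and 24 unchanged genes were called falsely. The median half-width of the 95% interval of a change was 0.39. The number of arrays limits this precision, and since the labels do not say how many mice stand behind each array, p-values measure only the spread between these samples. Arrays of a group correlated at 0.974 (PBS) and 0.982 (anti-DCIR2-BDC) over probe sets. The labels do not say that equal replicate numbers share a mouse, litter or day, so the numbers were not taken to pair arrays. Same-numbered arrays of different groups deviated together only weakly (r from 0.0714 to 0.145), and the replicate block is among the alternatives.

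Members of 90 gene lists (80 by function, 10 of cell type markers) were matched by symbol, 42 through an older symbol. Members and lists were chosen with earlier results of these data known. Genes were named by rule: the 40 largest rises and 40 largest falls, up to 6 of the largest changes of each list, up to 4 of the brightest members in lists with few calls, the markers, genes nearest the threshold, and genes that passed between the antibodies. The choice of Bst2, Cd2, Cd69, Eef1a1, Egr1, Foxp3, Ifnar1, Ifnar2, Ifng, Il10, Il17a, Il21, Il2rb, Il4, Jun, Kmt2c, Ltb, Ly6e, Maf1, Mif, Mki67, Rplp1 and Slamf6 was made after seeing their values. Promoter windows come from RefSeq (GRCm38.p6) and were found for 15614 of the genes. Alternatives were other samples in the fit, single arrays left out, the replicate number as a block and other normalizations. Further ones were other variance models, filters on dim genes, probe set rules and an adjusted p of 0.01. The last changed only the threshold and does not enter the counts of genes passing in every alternative. The result of 1 list is not reported here.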

Additional observations from a re-analysis of the deposited data

Results flagged for a closer look

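Il3, Serpinb6b, Zbtb32 and Cpd differed between the groups given the 2 antibodies, by limma's test of that difference (adjusted p = 0.0289 for each). The differences, anti-DCIR2-BDC minus anti-DEC205-BDC, were 4.40 for Il3 (95% interval 3.33 to 5.47), 1.95 for Serpinb6b (1.45 to 2.46), 1.87 for Zbtb32 (1.38 to 2.36) and 1.66 for Cpd (1.22 to 2.09). For each gene both arrays after anti-DCIR2-BDC lay above both arrays after anti-DEC205-BDC. The share of all genes without overlap between these groups was not counted, and between anti-DCIR2-BDC and PBS it was 55.3%.

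None of these calls held in every alternative. Without anti-DCIR2-BDC array 1 the adjusted p was 0.162 for Il3, Serpinb6b and Zbtb32 and 0.247 for Cpd, and without array 2 it was 0.291, 0.262, 0.291 and 0.307. Without anti-DEC205-BDC array 1 Il3 passed, and Serpinb6b (0.176), Zbtb32 (0.195) and Cpd (0.195) did not. With all probe sets tested the adjusted p was 0.52 for Il3, 0.493 for Serpinb6b and 0.491 for Zbtb32 and Cpd, and with no variance trend it was 0.0831 for all 4. With the replicate block Serpinb6b (0.054) and Zbtb32 (0.0515) did not pass.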

How the results depend on the processing

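No alternative reversed the direction of a gene named here as rising or falling. Over the arrays left out in turn, the genes passing against PBS numbered 2090 to 3637 (1179 to 2046 higher, 800 to 1594 lower). The lowest counts came without anti-DCIR2-BDC array 2 (2090 passing, 911 lower) and without array 1 (2285 passing, 800 lower), where the lone array is assumed to vary like the other groups. Testing all probe sets left 2223 (1331 higher, 892 lower), and an adjusted p of 0.01 left 2177 (1331 higher, 846 lower). The cause was not tested, beyond the fewer arrays, the larger number of tests and the stricter threshold. Between the antibodies 4 genes passed; the count was 0 to 27 over the arrays left out, 2 with the replicate block, 7 without the dimmest 30% of genes and 9 without the dimmest 50%. It was 0 with no trend, with all probe sets tested and at an adjusted p of 0.01, where limma's count at an unadjusted p under 0.05 in the main setting was 2036.

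The replicate block, which pairs arrays by number only, gave 3885 genes against PBS (2183 higher, 1702 lower). Median centring gave 2236 higher and 1254 lower and quantile normalization 1857 and 1736. Counts of genes changed at least 2-fold stayed between 1615 and 1965 in the alternatives.

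With 2 arrays per group, small changes were mostly not detectable: of the 3568 genes that passed, 176 changed less than 1.5-fold. The median half-width of 0.39 is that of an interval before adjustment, so a call needed a larger change at the same spread. Dim genes passed least often, so absence of a call among them is no sign of an equal level. All 3 groups share the host strain, sort and amplification, and no group had the antibody without antigen. A change in the mix of cells and a change per cell cannot be told apart.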
